A study of Mus musculus with 12 samples.

Results

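The 10013 regions described here are stretches of the mouse genome whose RNA was enriched in an immunoprecipitate of HP1γ over its input, in untreated fibroblast-derived cells. They are all the rows of the list deposited for untreated cells. The lists of the series hold 12622 rows together, so a stretch listed under both conditions counts in each. HP1γ, the product of the Cbx3 gene, reads methylation of histone H3 through its chromodomain. It is found in silent heterochromatin and also along the bodies of transcribed genes, where nascent transcripts are close to chromatin. HP1 proteins are also known to contact RNA, and RNA that stays on chromatin includes unspliced transcripts and long noncoding RNAs that act near the gene they come from.

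The cells are a line derived from mouse embryonic fibroblasts that are knock-out for HP1γ and were complemented to express it again, so HP1γ in all libraries comes from the restored expression. How the expression was restored, and whether the line is 1 clone, is not given in the sources used here. Behind the list stand 3 input libraries of chromatin RNA and 3 libraries of the immunoprecipitate (IP), labelled replicates 1, 2 and 3 and grown without phorbol ester. The method, RNAchIP-seq, crosslinks nuclei lightly with formaldehyde, solubilises chromatin with DNase and sonication, and sequences the RNA of the input and of the IP. No mock IP and no IP from cells without HP1γ was analysed here, so RNA bound to HP1γ and RNA recovered unspecifically cannot be told apart. The list holds 1 value per region and none per library. Regions therefore carry no replicate error, read depth is unknown, and the comparisons below describe regions of 1 list and were not tested.

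Regions were short. The median width was 528 bp, with quartiles at 408 and 687 bp, and together they covered 5.93 Mb on the 19 autosomes and the X chromosome. Only 38 regions were under 200 bp, the narrowest being 162 bp wide. At the other end 737 regions (7.36%) were 1000 bp or wider and held 16.9% of the covered length, and 49 were 2000 bp or wider. Width depended on how many peaks had been joined. Peaks were called in each replicate and joined across replicates, and each region lists the peaks it was made from, here called member peaks. The 7760 regions of 3 member peaks had a median width of 477 bp, the 1559 regions of 4 had 698 bp, the 453 regions of 5 had 963 bp, and the 83 regions of 7 or more had 1721 bp. The 7003 regions with exactly 1 member peak from each replicate were the narrowest of these sets, with a median of 465 bp and a range of 162 to 2008 bp.

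The strength of a region is given by 2 of the authors' values, the fold enrichment of IP over input and −log10 q, where q is the peak caller's p-value adjusted for multiple testing. Both are read as means over the member peaks of a region. Fold had a median of 3.65 and quartiles of 3.07 and 4.28. It reached 5 in 998 regions (9.97%) and lay under 2 in 75 (0.749%). The median −log10 q was 3.59, with quartiles of 2.51 and 5.23, and 403 regions reached 10. In 334 regions (3.34%) the mean −log10 q was below that of q = 0.05.

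Fold and −log10 q ranked the regions differently. Across the 10013 regions, which share the same libraries, Spearman's rho between them was 0.51. Of the 100 regions highest by fold, 31 were among the 100 highest by −log10 q. All 281 regions with a fold of at least 6 had a −log10 q of at least 4.87, while a fold under 2 occurred with −log10 q from 0.374 to 9.17. The highest quartile of fold and the lowest of −log10 q shared 50 regions, which were narrow (median 426 bp). Of these, 68.0% had no other region within 10 kb, against 36.3% of the whole list. The reverse class, 265 regions in the lowest quartile of fold and the highest of −log10 q, had a median width of 672 bp. Of these, 57.0% lay in groups of at least 5 regions with gaps of at most 10 kb, against 24.9% of the whole list. Part of this class comes from the groups of 32 regions on chromosome 10 and 41 regions on chromosome 17 described below. Their median folds were 2.14 and 2.30 and their median −log10 q values 6.78 and 5.69. Width had little relation to fold (rho = 0.05), and this turned to −0.05 among regions whose mean −log10 q was at least that of q = 0.001. Its rho with −log10 q was 0.26, and 0.26 also among regions of exactly 3 member peaks.

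**Figure D1:**
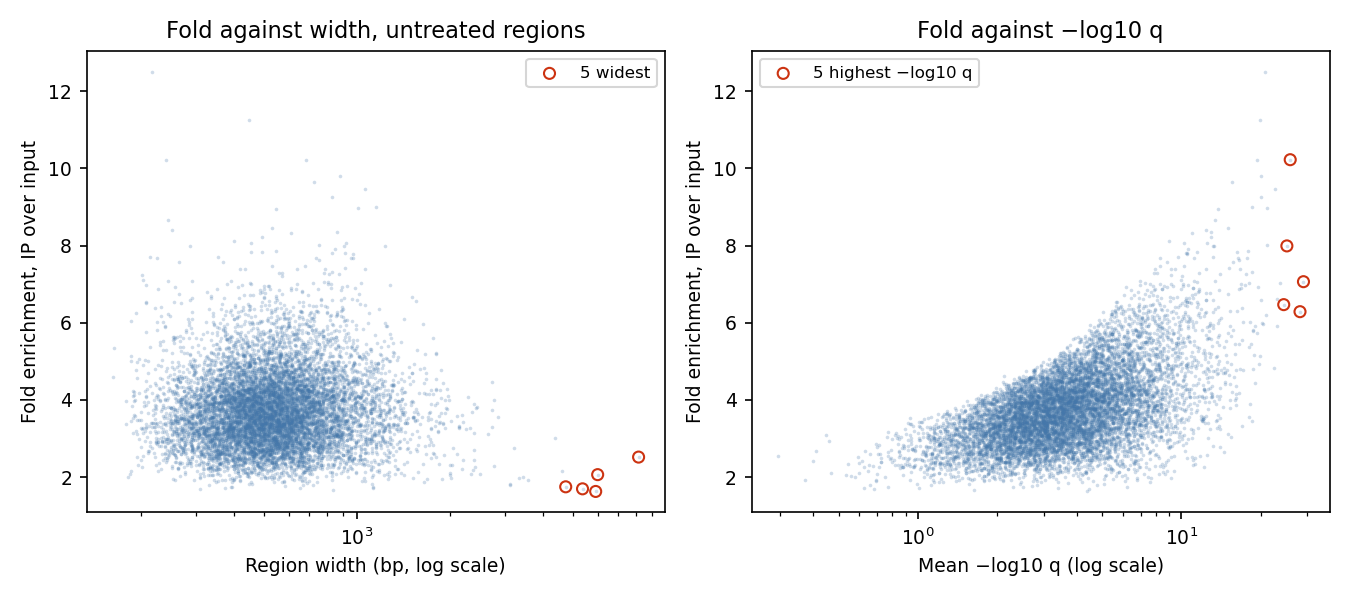
Fold enrichment of IP over input against region width in bp (left) and against mean −log10 q (right), both on log horizontal axes, with 1 point per untreated region (n = 10013). The 5 widest regions (circles, left) have folds of 1.63 to 2.52, and the 5 highest by −log10 q (circles, right) have folds of 6.29 to 10.2.

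The 10 highest folds were found at widths between 216 and 1155 bp. The first region, of 216 bp on chromosome 6 (mm9, 8727938 to 8728153), had a fold of 12.5 and a −log10 q of 20.8, and its nearest region was 107237 bp away. The second, of 448 bp on chromosome 3 (122204219 to 122204666), had a fold of 11.3 and lay 89 bp from its neighbour. Of the 10 highest, which ranged from 8.96 to 12.5, 4 had no other region within 10 kb. Each of the 10 was built from 1 member peak per replicate. The 100 highest by fold had a median width of 591.5 bp, above the 528 bp of the list. Of these, 53.0% stood alone by this distance, against 36.3% of all regions, and 14.0% lay in groups of at least 5. By −log10 q the first region lay on chromosome 16 (32992002 to 32992781), with a value of 29.1 at a fold of 7.06. The second, on chromosome 17 (85357342 to 85357871), had 28.2 at a fold of 6.29. The region on chromosome 17 at 22873486 to 22874168 was among the first 5 by both measures, with a fold of 10.2 and a −log10 q of 25.9.

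The widest regions had folds far below the median and −log10 q values above it. The widest of all, on chromosome 17 (12947058 to 12955207), was 8150 bp wide, with a fold of 2.52 and a −log10 q of 10.9. It was joined from 15 member peaks, 1 of replicate 1 and 7 each of replicates 2 and 3. A 6007 bp region on chromosome 1 (92720241 to 92726247) also had 15 member peaks, 1, 5 and 9 from replicates 1, 2 and 3, with a fold of 2.06 and a −log10 q of 6.13. A pair on the X chromosome followed, 5919 bp (100656636 to 100662554) and 5366 bp wide (100668938 to 100674303). Their folds of 1.63 and 1.69 were the lowest and the fourth lowest of the list, at −log10 q of 4.39 and 4.45. The fifth, of 4734 bp on chromosome 10 (119875904 to 119880637), had a fold of 1.75 and a −log10 q of 6.20, with 1 member peak of replicate 1, 5 of replicate 2 and none of replicate 3. In each of these 5 regions replicate 1 gave 1 member peak where another replicate gave 4 or more. By contrast, the next regions by number of member peaks drew most on replicate 1. A region on chromosome 12 (9582508 to 9585239) had 12, of which 6 came from replicate 1, at a fold of 3.74. Those on chromosome 4 (57960406 to 57962847) and chromosome 10 (5316659 to 5319870) had 11 each, 5 from replicate 1, at folds of 3.81 and 2.74. Positions of single member peaks are not in the list, so the extent of any 1 of them is unknown.

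The other 3 of the 5 regions with the lowest folds were not wide. They lay on the X chromosome (18728682 to 18729516, 835 bp, fold 1.67), chromosome 19 (28718701 to 28719010, 310 bp, fold 1.69) and chromosome 8 (109900890 to 109901542, 653 bp, fold 1.71). Their −log10 q values were 1.63, 0.680 and 3.42, each below those of the wide X chromosome pair, and each had 1 member peak per replicate.

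The 49 regions of at least 2000 bp, taken as a set, also had low folds. Their median fold was 2.70 and their median −log10 q 6.85, against 3.65 and 3.58 in the 9964 narrower regions. They held on average 2.02, 2.59 and 2.43 member peaks of replicates 1, 2 and 3, whereas narrower regions held 1.18, 1.09 and 1.04. In 31 of the 49, replicate 2 or 3 gave more member peaks than replicate 1, and in 7 replicate 1 gave more than either. All 49 had another region within 10 kb, against 63.7% of the whole list. In groups of at least 5 lay 79.6%, against 24.9% of the whole list. The 49 are not separate loci. They include the 5 widest regions, and many more come from the groups on chromosomes 10 and 17 that hold some of these. The regions of these groups had median folds of 2.14 and 2.30. In the chromosome 10 group replicates 1, 2 and 3 gave 34, 65 and 35 member peaks. The values of the set therefore partly restate those loci. Low fold did not extend to wide regions in general, since the highest quartile of width had a median fold of 3.71, against 3.65 in the list.

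Genes were not assigned to regions, since the gene tables at hand are of another build. From general knowledge of the mouse gene map, not checked here against an mm9 annotation, the X chromosome pair lies at Xist, the long noncoding RNA that coats the inactive X chromosome. The chromosome 17 stretch lies at Airn, a long noncoding RNA that overlaps the imprinted Igf2r gene in antisense and silences genes on the paternal copy. The chromosome 10 stretch lies at Hmga2, which encodes an architectural chromatin protein of proliferating mesenchymal cells. RefSeq's table for GRCm38.p6 lists Xist, Airn and Hmga2 on these chromosomes, the first 2 as lncRNA genes. The libraries were directional but the list holds no strand, so sense and antisense RNA, such as Igf2r and Airn, cannot be told apart in it.

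Most listed regions held peaks of all 3 replicates. A member peak from each replicate was present in 9202 regions (91.9%, exact Clopper-Pearson 95% interval 91.3 to 92.4, which covers counting error only). The other 811 regions drew on 2 replicates, and replicate 3 was the one most often missing. No member peak of replicate 3 was present in 436 regions, none of replicate 2 in 246 and none of replicate 1 in 129. No listed region has fewer than 3 member peaks, so each of these 811 has at least 2 from 1 replicate. Regions called only once in each of 2 replicates are thus absent from the list, which raises the share with all 3. Leaving out the member peaks of 1 replicate and still asking for 3 leaves 1505 regions without replicate 1, 1988 without replicate 2 and 2367 without replicate 3. These numbers are low by construction, since the 7003 regions called once in each replicate cannot then qualify.

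The replicates differed in how many peaks they brought and how many of these were used. Member peak numbers rise along the genome in each replicate without exception and run on without a break inside each region. They are therefore read as ranks along the genome, and the highest number is a lower bound of the peaks called. This bound was 87348 in replicate 1, 40773 in replicate 2 and 33450 in replicate 3. The list used 11868 peaks of replicate 1, at most 13.6% of those called, 11036 of replicate 2 (27.1%) and 10480 of replicate 3 (31.3%). Replicate 1 thus brought the most called peaks and had the smallest share of them joined. Replicate 1 also gave a region more than 1 peak most often, in 18.3% of regions, against 11.7% for replicate 2 and 8.18% for replicate 3.

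Fold and −log10 q also differed with the replicate a region drew on. Regions with no member peak of replicate 1 had a median fold of 3.38 and a median −log10 q of 2.12. Those with none of replicate 2 had 3.62 and 2.81, and those with none of replicate 3 had 3.90 and 3.27. Regions supported by all 3 replicates had a fold of 3.64 and a −log10 q of 3.66. In fold, regions without replicate 3 thus stood above the regions with full support and those without replicate 1 below them, while in −log10 q all 3 of these sets were lower. The same order appeared where all replicates were present and 1 of them gave a second peak. The 798 regions with the second peak from replicate 1 had a median fold of 3.80, the 447 with it from replicate 2 had 3.47, and the 270 with it from replicate 3 had 3.34. The interquartile ranges of these sets overlapped, at 3.26 to 4.44, 3.01 to 4.11 and 2.88 to 4.02. Since the deposited folds are read as averages over member peaks, folds of regions of different make-up are not on an equal footing.

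**Figure D2:**
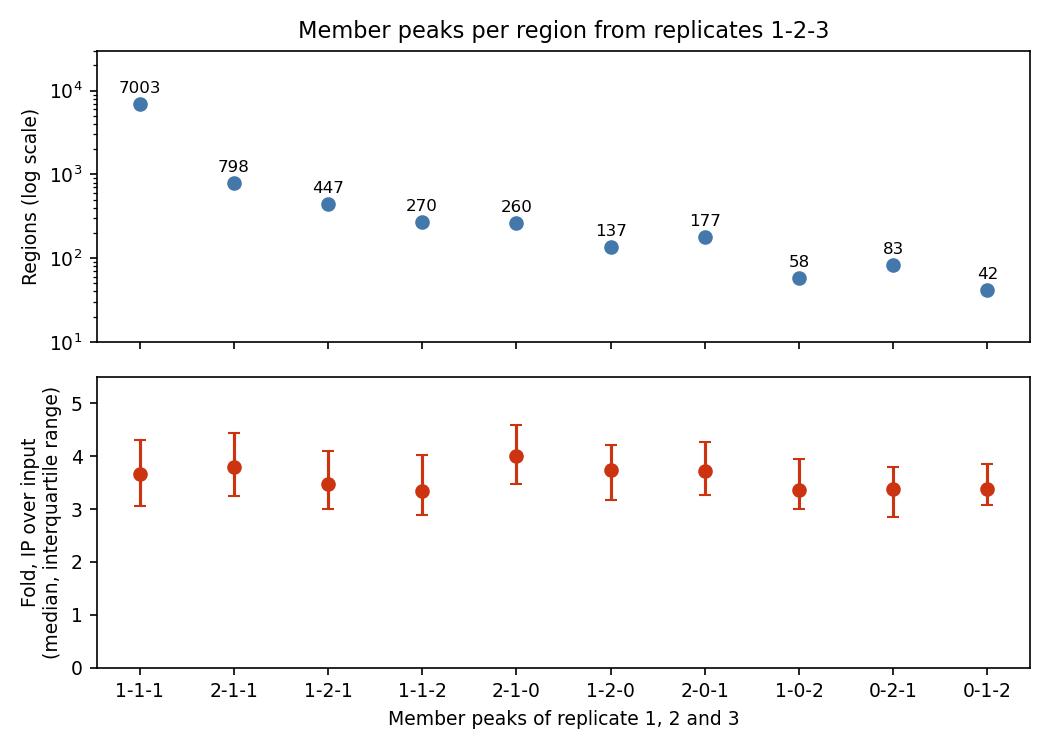
Number of regions (upper, log scale) and median fold with interquartile range (lower) for the 10 most basic combinations of member peaks, written as the number from replicates 1, 2 and 3. The combination with 1 peak each holds 7003 regions, and the medians lie between 3.34 (1-1-2) and 3.999 (2-1-0).

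Regions lay close together. The median gap between neighbouring regions was 13.9 kb, with quartiles at 2.75 and 115.5 kb, and the mean gap was 254.6 kb. A neighbour within 1 kb was found for 22.8% of regions, within 10 kb for 63.7% and within 100 kb for 89.8%. At the close end, 182 of the 9993 pairs of neighbours were under 100 bp apart without having been joined. At the far end, the most isolated region lay on the X chromosome (83034241 to 83034550), with 7.27 Mb to its nearest neighbour and a fold of 3.63 at a −log10 q of 1.32. The next 2 were on chromosome 18 (89274192 to 89274728), 4.54 Mb from its neighbour with a fold of 4.72, and on chromosome 9 (4379530 to 4379910), 3.48 Mb away with a fold of 3.55.

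The stretches between neighbouring regions also held called peaks that had been left out. Between neighbours within 10 kb, both with a peak of the replicate in question, replicate 1 had on average 1.09 called peaks that entered no region, replicate 2 had 0.678 and replicate 3 had 0.401. Of the 3870 such pairs with all replicates in both regions, 1372 (35.5%) had no other called peak of any replicate between them. Per kb of gap, left-out peaks of replicates 1, 2 and 3 were denser between close neighbours, at 0.345, 0.215 and 0.127 per kb, than between neighbours farther apart, at 0.0278, 0.0107 and 0.00827 per kb.

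Neighbouring regions were alike in fold and much less in −log10 q. Across the 1311 pairs under 1 kb apart, Spearman's rho of their folds was 0.46. It was 0.38 over 3193 pairs at 1 to 10 kb, 0.20 over 2862 pairs at 10 to 100 kb, −0.02 over 1963 pairs at 100 kb to 1 Mb and 0.02 over 664 pairs farther apart. For −log10 q the rho of the closest pairs was 0.11, and for width 0.12. Pairs share libraries and regions between them, so these values are descriptions. The fold of the larger of 2 neighbours under 1 kb apart was typically 1.20 times that of the smaller. This median ratio was also 1.20 at 1 to 10 kb. It was 1.23 at 10 to 100 kb, 1.27 at 100 kb to 1 Mb and 1.25 farther apart, so it changed little with distance. In the lists without replicate 1, 2 or 3, rho within 10 kb was 0.54, 0.53 and 0.53, against 0.41 in the full list. Folds in these lists are the deposited ones, which still include the replicate left out. Neighbours were paired anew in each list, which left 323, 439 and 596 pairs within 10 kb, against 4504 in the full list.

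**Figure D3:**
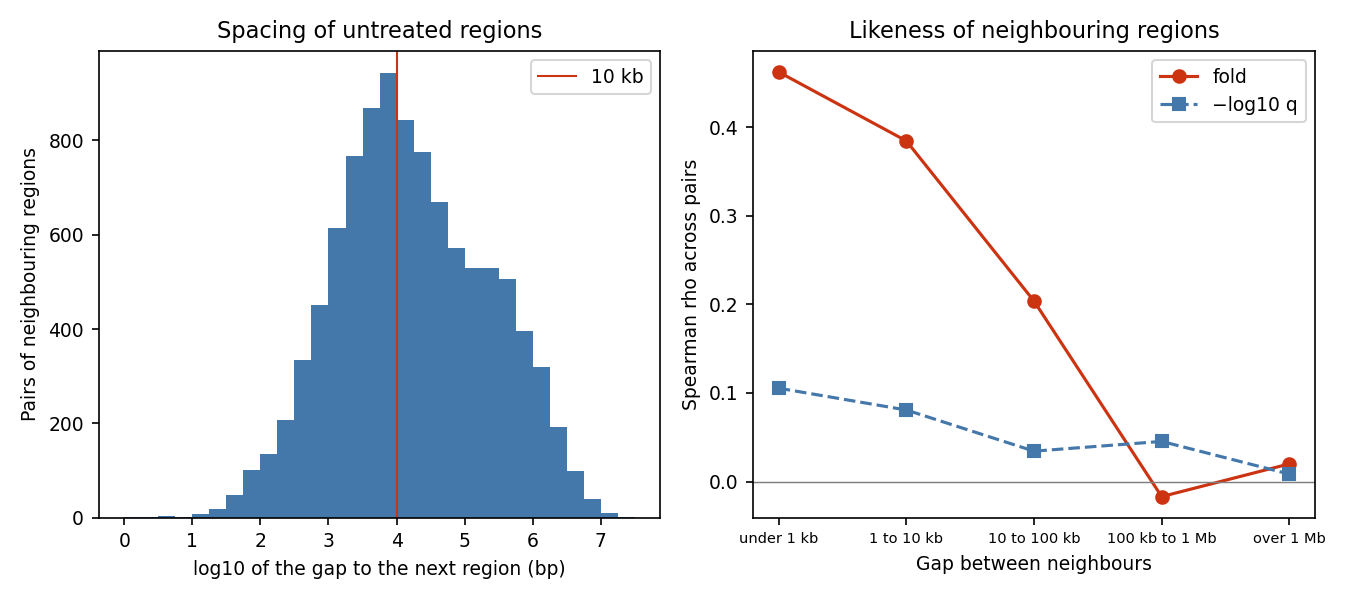
Left, the number of neighbouring pairs by log10 of the gap in bp, with a line at 10 kb (median gap 13.9 kb). Right, Spearman's rho between neighbours for fold (circles) and −log10 q (squares) by gap, falling for fold from 0.46 under 1 kb to −0.02 at 100 kb to 1 Mb.

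Joined at gaps of at most 10 kb, the list formed 1873 groups of 2 or more regions, and 3636 regions (36.3%) stood alone. Groups of at least 5 regions numbered 325, were found on all 20 chromosomes and spanned a median of 20.5 kb. They held 2490 regions (24.9%, exact interval 24.0 to 25.7). This interval counts regions as separate draws, although the 2490 form only 325 groups, so it understates the uncertainty. Groups of 10 or more numbered 60, with 851 regions, and 8 groups had 20 or more. Without replicate 1, 2 or 3 the portion in groups of at least 5 was 4.92%, 6.54% and 9.55%, in lists that are shorter by construction. With gaps of 5 or 50 kb in place of 10 kb it was 14.0% and 52.3%.

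Regions in large groups had lower folds, higher −log10 q and greater widths than regions alone. Regions alone had a median fold of 3.80 (quartiles 3.22 and 4.45), those in groups of 5 to 9 had 3.43, those in groups of 10 to 19 also had 3.43, and the 224 in groups of 20 or more had 2.62 (2.25 and 3.08). The median −log10 q went the other way, from 3.33 alone to 3.89, 4.25 and 5.07, and the median width from 491 bp to 584, 639 and 712.5 bp. For groups of at least 5 against regions alone, the median fold differed by −0.43. Among regions of exactly 3 member peaks it differed by −0.49, and in the lists without replicate 1, 2 or 3 by −1.05, −0.69 and −0.62. These lists keep the deposited folds, in which the peaks of the replicate left out still count. Groups were formed anew in each of them and among regions of exactly 3 member peaks. A region alone there can lie in a group of the full list. Without replicate 1, 2 or 3, groups of at least 5 held only 4.92%, 6.54% and 9.55% of 1505, 1988 and 2367 regions. The class of 20 or more rests on only 8 groups. Support by all 3 replicates was 91.0% alone and 93.2% in groups of at least 5.

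**Figure D4:**
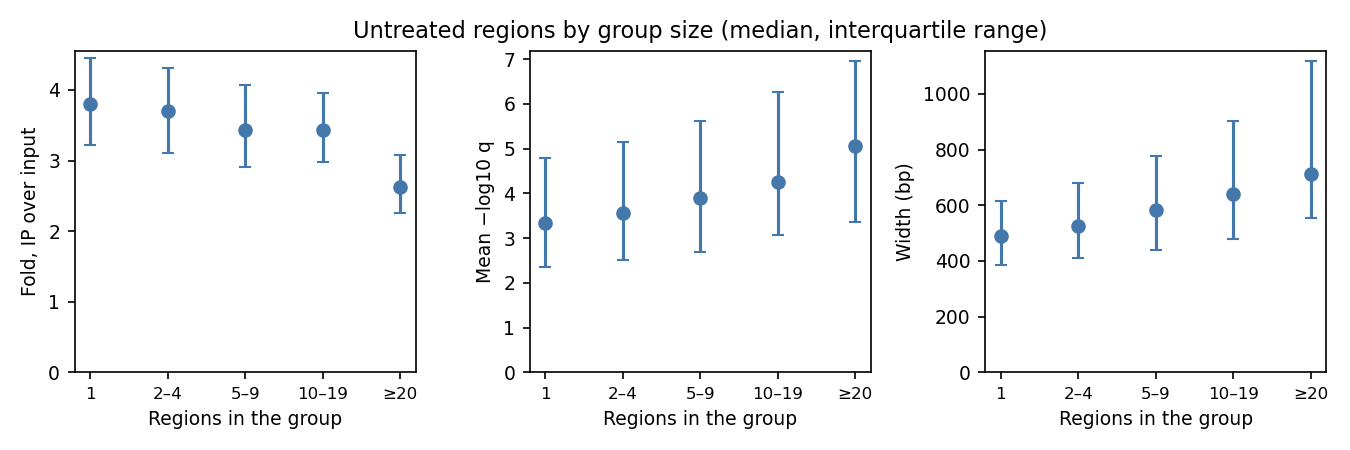
Median and interquartile range of fold, mean −log10 q and width in bp by the number of regions in the group a region belongs to (gaps of at most 10 kb), for 3636, 3887, 1639, 627 and 224 regions. Median fold falls from 3.80 to 2.62 while median −log10 q rises from 3.33 to 5.07.

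The largest group was the stretch on chromosome 17 that holds the widest region. It had 41 regions between 12934248 and 13011699 and covered 69.0% of its 77.5 kb, at folds of 1.77 to 4.44 with a median of 2.30. Its median width was 936 bp, and 40 of the 41 regions had a peak in every replicate. Of the peaks called inside it, 74.6% of replicate 1, 94.3% of replicate 2 and 95.7% of replicate 3 were in the list. The group is bounded by listed regions and was chosen for their number, which raises these shares. Without replicate 1, 2 or 3 the largest group of the list had 21, 17 and 21 regions.

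The next groups were more broken up. On chromosome 14 (69997516 to 70087293) 37 regions covered 31.6% of 89.8 kb, with folds of 1.91 to 3.57 and a median of 2.72. By the same general knowledge of the map, this stretch lies at Loxl2, a lysyl oxidase that crosslinks collagen in the extracellular matrix. On chromosome 10 (119791845 to 119908212), which holds the fifth widest region, 32 regions covered 51.9% of 116.4 kb, which was the longest span of any group of at least 5. Its folds kept within 1.75 to 2.56 and its median −log10 q was 6.78, the highest of the 10 largest groups. Here 24 of the 32 regions had all replicates, and the list used 34 member peaks of replicate 1, 65 of replicate 2 and 35 of replicate 3. Of the peaks called inside this group, 45.9%, 84.4% and 92.1% were listed. A group of 29 regions on chromosome 15 (63934576 to 64033417) covered only 18.2% of 98.8 kb and had the wider range of folds, 2.26 to 5.46.

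The other 6 of the 10 largest groups held 18 to 23 regions each. A pair lay on chromosome 11 (32263511 to 32326123 and 80303514 to 80368714), and 1 each on chromosomes 17 (3326625 to 3376995), 9 (56051015 to 56114246), 14 (34063630 to 34123875) and 15 (31155018 to 31201617). Their median folds were 2.50 to 4.26, with the highest in the chromosome 15 group. The group of the widest pair on the X was small in number, with 4 regions over 21.9 kb (100656636 to 100678524), but covered 63.9% of its span, at folds of 1.63 to 2.66 and −log10 q of 4.39 to 14.5. Replicates 1, 2 and 3 gave it 4, 13 and 8 member peaks. The group of the chromosome 1 region (92713989 to 92735821) had 7 regions over 21.8 kb, covering 49.4% of it, with 7, 12 and 17 member peaks.

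**Figure D5:**
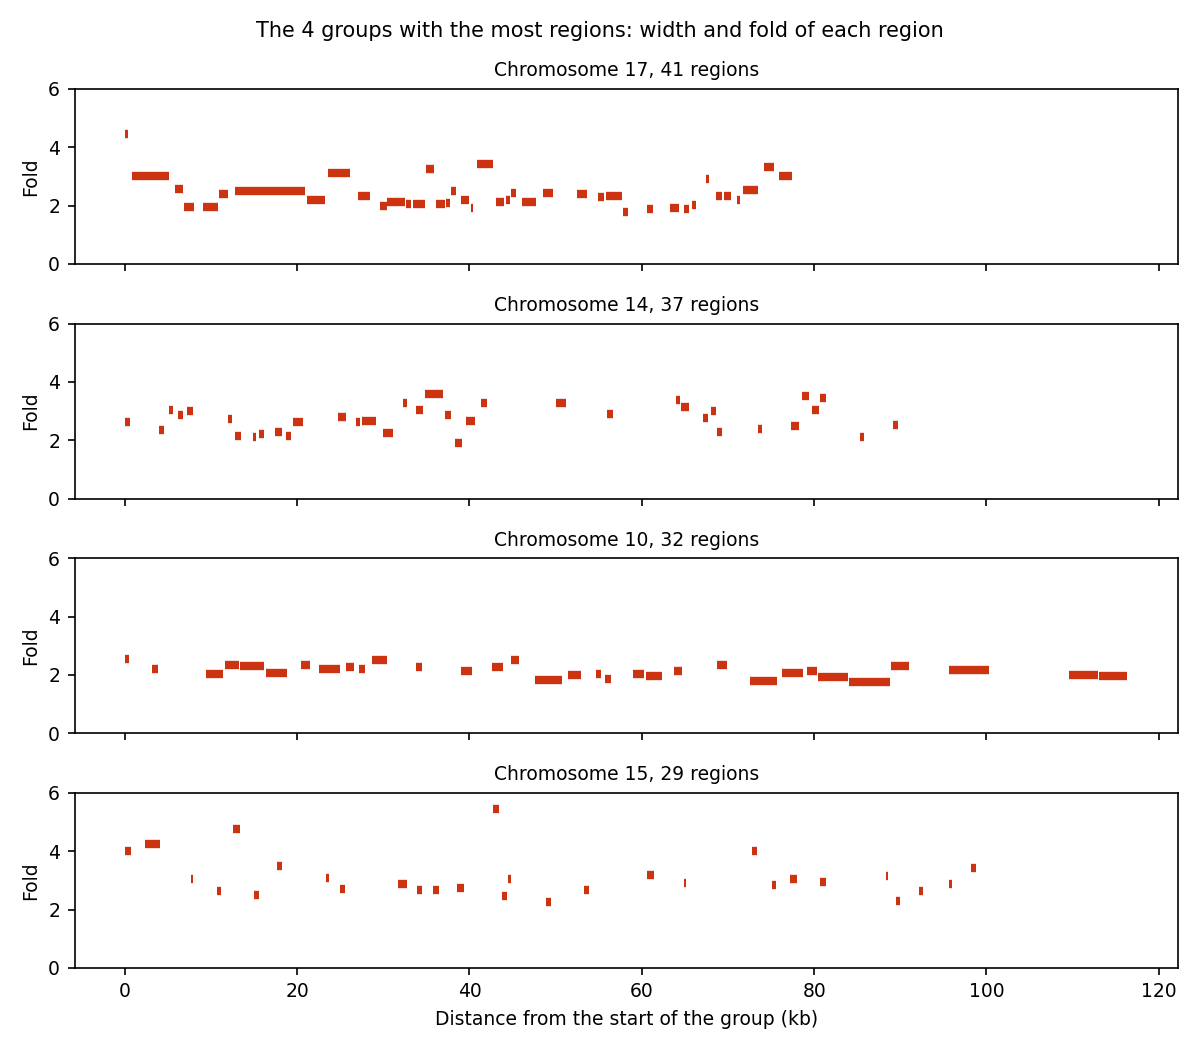
The 4 groups with the most regions, with each region drawn as a bar from its start to its end (distance from the start of the group, kb) at the height of its fold enrichment. The chromosome 17 group is covered to 69.0% and the chromosome 10 group keeps within folds of 1.75 to 2.56, while the chromosome 15 group is covered to 18.2%.

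Of the 5 fullest windows of 1 Mb, 3 held one of the 10 largest groups, and those on chromosome 10 and chromosome 18 held none with more than 14 regions. The fullest window, on chromosome 14 (69860968 to 70751196), held 68 regions in 11 groups or single regions, with a median fold of 2.81. At least 233, 125 and 117 peaks of replicates 1, 2 and 3 had been called in it, of which 39.5%, 63.2% and 67.5% were listed. In the window on chromosome 17 at 12315954 to 13143785, 61 regions had a median fold of 2.51, and 45.2%, 68.8% and 78.2% of called peaks were listed. The window on chromosome 10 (84177560 to 85119814) held 54 regions, with 30.2%, 38.3% and 56.0% listed. The windows were chosen for their number of listed regions, which raises these shares. With windows of 500 kb, the fullest lay on chromosome 17 (3080579 to 3532963, 61 regions).

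Chromosomes differed in density more than in strength. Over the span the list covers on each, chromosome 17 had 6.76 regions per Mb and chromosome 10 had 6.17, while chromosome 16 had 2.85 and the X chromosome 0.935. Median folds of chromosomes lay between 3.40 (chromosome 18) and 3.87 (chromosome 2). The portion of regions in groups of at least 5 went from 8% on the X and 10.8% on chromosome 12 to 35.6% on chromosome 17 and 46.4% on chromosome 14.

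The X chromosome was low in number at each step that the list records. Its 150 regions were 1.498% of the list (exact 95% interval 1.27 to 1.76). This interval covers counting error only and counts regions as separate draws, which grouped regions are not. Between the first and the last of them, replicates 1, 2 and 3 had called 1843, 705 and 696 peaks, or 2.11%, 1.73% and 2.08% of all peaks called. On the X 9.28%, 23.7% and 22.6% of these were listed, against 13.6%, 27.1% and 31.3% over the genome. The X had the lowest listed share of any chromosome in replicates 1 and 3. In replicate 2 chromosome 4 was lower, at 23.5%, and chromosomes 12 and 13 were near the X, at 23.8% and 23.7%. Chromosome 17 had the largest listed share in replicates 2 and 3 (32.8% and 38.4%) and chromosome 10 in replicate 1 (17.5%). Median width (458 bp) and median −log10 q (2.87) were lowest on the X of all chromosomes, while its median fold (3.58) was close to that of the list and 94.0% of its regions had all replicates, the highest share of any chromosome. The longest stretch without a region, 24.4 Mb, was also on the X.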

How the data were processed

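RNA of chromatin input and HP1γ IP was sequenced as 65 bp single-end reads. MACS2 2.1.0, STAR 2.5.0a, cutadapt 1.11, deepTools, Subread and its featureCounts 1.4.6-p3, and mm9 as the build, are named in the submitters' processing notes, without roles. The sources used here do not state how peaks were called, joined and filtered. The deposited list gives, per joined region, a fold ratio of IP over input, −log10 q, a score and a summit offset. As deposited, score and offset times the number of member peaks are whole within 0.001 in all 10013 regions, so the authors' values are read as means over member peaks. For fold and q this was carried over and not tested. The offset was not used further, since it gives no position in a joined region.

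Widths, gaps, groups (gaps of at most 10 kb), windows and member peaks were computed in Python 3.11.15 (scipy 1.17.1, numpy 2.4.6, pandas 2.3.3) and drawn in matplotlib 3.10.9. Starts are 1-based. The code was tested on a simulated list, where all 2327 group sizes were recovered. Named are the 10 regions highest by fold, 5 by −log10 q, 5 widest, 5 with most member peaks, 5 lowest by fold, 3 most isolated, 10 largest groups and 5 fullest windows. The groups of the widest regions, the class of at least 2000 bp, the likeness of neighbours, the peaks between them, and both the group contrast and the likeness in lists without a replicate were chosen after seeing values. The members, the rules and the measures were chosen with earlier results of these data known. The planned counts by gene, gene part and gene list were not run, because the gene tables at hand are of another build. Gene names given are background knowledge.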

Additional observations from a re-analysis of the deposited data

How the results depend on the processing

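No paired analysis was possible because the list holds no values per library. Of 92 alternative values for 16 results, 37 stayed within the interval or 1.5 times the count of the full list, 53 moved and 2 turned sign. The intervals treat regions as separate draws, which grouped regions are not. Alternatives on gene annotation were not run. With q of at most 0.001, 6358 regions remained, with a median width of 562.5 bp, a median fold of 3.97, 56.0% with a neighbour within 10 kb, 18.3% in groups of at least 5, 1.12% on the X and 93.7% with all replicates. With q of at most 0.01 these were 541 bp, 3.79, 61.6%, 23.0% and, for all replicates, 92.6%, and at 0.05 the fold was 3.69. The difference in median fold between groups of at least 5 and regions alone grew to −0.55 at 0.01 and −0.68 at 0.001. Since fold and −log10 q are related (Spearman's rho 0.51), filters on q also select on fold. The weak relation of width and fold turned to −0.0028 at 0.01 and −0.0495 at 0.001. Regions with all replicates gave 521 bp, 62.0% and 23.2%. Merging within 1 kb gave 543 bp, 3.69, 55.2%, 15.2% and a largest group of 26. Gaps of 5 and 50 kb gave 51.1% and 84.4% with a neighbour and 14.0% and 52.3% in groups of at least 5. Leaving out 1 replicate gave 1505 to 2367 regions, widths of 746 to 826 bp (bounds and folds still joined over all replicates), folds of 3.46 to 3.70, 34.9% to 39.4% with a neighbour, 4.92% to 9.55% in groups of at least 5, largest groups of 17 to 21, 1.06% to 1.26% on the X and 7.94% to 9.10% on chromosome 10. These lists are shorter by construction. The depth of the libraries, which limits which regions could be called, is unknown.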
